A study of Mus musculus with 8 samples.

Results

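Contactins are adhesion proteins of the immunoglobulin superfamily, held at the cell surface by a glycosylphosphatidylinositol (GPI) anchor, and the contactin-associated proteins (Caspr proteins, genes named Cntnap) are their membrane-spanning partners. The group described here holds 9 mouse genes chosen by symbol, of 28918 in the expression table: Cntn1, Cntn2, Cntn3, Cntn4, Cntn5, Cntn6, Cntnap1, Cntnap2 and Cntnap4. Of these 9 genes, 6 had a row in that table, and Cntn3, Cntn5 and Cntnap4 were not analysed here. The group was drawn up around Cntn6, which had stood out as low in Colq tumors, so every difference between Colq and vector tumors in a member gene is given as a description, with no test.

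The samples were subcutaneous tumors of the B16-mhgp100 mouse melanoma line grown on C57BL/6 mice. In 3 tumors the line over-expressed Colq, the collagen-like tail of acetylcholinesterase, and in the other 3 it carried the vector alone. Mice of both groups were given anti-PD1, an antibody against an inhibitory receptor of T cells, at 200 μg per dose. They had 4 doses at 2 per week, the first on day 10, and the tumors were collected 1 day after the fourth. There was therefore no group without the antibody. The sources used here give neither the age of the mice nor whether the line was a single clone. Each Colq tumor gave 1 library, vector tumors 1 and 2 gave 2 portions each, and vector tumor 3 gave 1 library, which makes 8 libraries. Values are TPM (transcript share scaled by gene length and library) of bulk RNA, which keep no record of depth, so the counts behind each value are unknown; 19887 to 21602 genes were above 0 per library. Colq itself stood at 3.86 to 5.03 TPM in the Colq libraries and at 0 to 0.24 TPM in the vector libraries. Melanocyte transcripts were present in every library: 10 of 10 markers were in the table, and their summed level was 11783 to 12105 TPM in Colq libraries and 18783 to 23817 TPM in vector libraries. The markers did not all go the way of the sum. Mlana had tumor means of 2136 TPM in Colq and 1810 TPM in the vector group, and Trpm1 had 455 and 447 TPM. The other 8 had the lower mean in Colq tumors.

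Contactins and Caspr proteins are best known from nerve. At the paranodal junction beside each node of Ranvier, Cntn1 and Cntnap1 form a complex on the axon that binds neurofascin on the myelinating cell, while Cntn2 and Cntnap2 hold potassium channels in the neighbouring juxtaparanode. Cntn6, also called NB-3, is a neuronal contactin described in the developing brain, where Notch1 and the L1-family protein Chl1 are among its reported partners. Cntn4 is likewise known from developing neurons, where it binds the amyloid precursor protein App.

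In the GENCODE M21 annotation of build GRCm38, which differs from the build mm39 of the deposited values, Cntn6 lies on chromosome 6 from 104492790 to 104863406 on the plus strand. Its principal transcript has 24 exons, and its exons together cover 6499 bases. Because Cntn6 was the measured contactin with the highest level, short stretches near its RefSeq start site are shown, with the hexamers searched for in capitals. These are the E-box forms CATGTG (with its reverse complement CACATG) and CAGCTG, sites of the kind that basic helix-loop-helix factors bind. The stretches come from the RefSeq table of build GRCm38.p6, plus strand.
Cntn6, chr6:104492995-104493024: cgggagctttgCACATGTGcctcaagaact
Cntn6, chr6:104492897-104492926: ggaatggCAGCTGctccCAGCTGcctgagt
The first stretch holds CATGTG and CACATG overlapping in 1 run, and the second holds CAGCTG at 2 places. The search window ran from 250 bases before to 50 after a RefSeq start site, which can differ from the GENCODE start. For Cntn6 it spans 104492794 to 104493093, so the window and both stretches lie inside the GENCODE span given above. The windows of Cntn2, Cntn3, Cntn4 and Cntnap2 likewise lie inside the GENCODE spans of those genes. CATGTG was found on either strand in 14.2% of 32851 windows of the same length and CAGCTG in 16.3%. CACGTG, the other form searched, was found in 7.15% of windows and not in that of Cntn6. None of the windows of Cntn1, Cntn2, Cntn3, Cntn5 or Cntnap2 held any of the 3 forms, and those of Cntn4 held CAGCTG only. Such matches are descriptions of letters. Cntnap1 and Cntnap4 had no entry in that table.

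Cntn6 accounted for nearly all RNA of the measured contactins in vector tumors. Its level was 0.18, 0.11 and 0.07 TPM in the 3 Colq libraries. In the vector libraries it stood at 15.8 and 27.7 TPM in the portions of tumor 1, at 15.8 and 7.07 TPM in those of tumor 2, and at 4.71 TPM in tumor 3. Every vector library was above every Colq library, and the lowest vector library was 26.2 times the highest Colq library. Over tumors, with portions averaged, the level was 0.12 ± 0.056 TPM in Colq and 12.6 ± 8.58 TPM in the vector group (SD, n = 3 tumors each), a ratio of 105 between the means. On the log2(TPM + 1) scale, which understates changes of low genes, the Colq minus vector difference was -3.34. Cntn6 made up 98.3% to 100% of the summed TPM of Cntn1, Cntn2, Cntn4 and Cntn6 in the 5 vector libraries. In the Colq libraries its share was 77.8% to 100%, of a sum of at most 0.18 TPM. In bulk tissue, fewer cells of a type and less RNA per cell cannot be told apart.

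**Figure D1:**
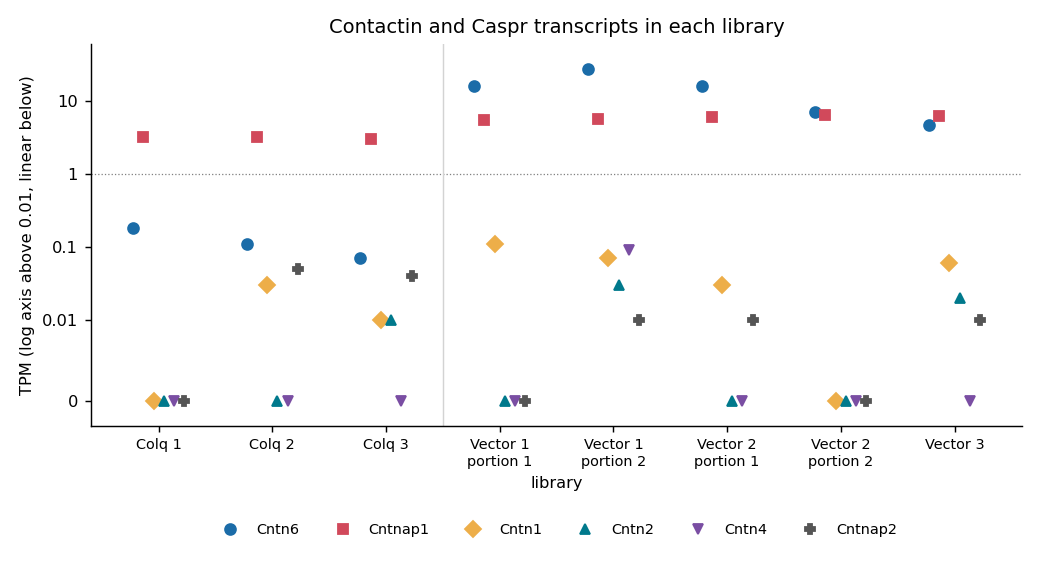
TPM of the 6 measured contactin and Caspr genes in each of the 8 libraries (1 point per gene and library; log axis above 0.01 TPM, linear below; the dotted line marks 1 TPM). Cntn6 lies between 0.07 and 0.18 TPM in the Colq libraries and between 4.71 and 27.7 TPM in the vector libraries, while Cntn1, Cntn2, Cntn4 and Cntnap2 stay at or below 0.11 TPM.

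The level of Cntn6 also varied within the vector group, a comparison that the choice of the gene did not use. Tumor means were 21.8 TPM in vector tumor 1, 11.4 in vector tumor 2 and 4.71 in vector tumor 3, so the highest tumor was 4.62 times the lowest. The portions of tumor 1 differed 1.75-fold and those of tumor 2 differed 2.23-fold. Both differences between portions were smaller than the 4.62-fold range between tumors, and no portion was as low as vector tumor 3. The first portions of tumors 1 and 2 were alike (15.8 TPM each). The absolute difference between portions on the log2(TPM + 1) scale was 0.77 in tumor 1 and 1.06 in tumor 2, against medians of 0.14 and 0.22 over the 13726 genes tested, those with a mean of at least 1 TPM over the 6 tumors. It exceeded that of 95.6% of genes in tumor 1 and of 96.9% in tumor 2. Among the 5604 genes with a vector mean from 5 to 30 TPM, the SD of Cntn6 over vector tumors (0.97 log2 units) was larger than that of 98.6%, and the median SD was 0.15. These are ranks among genes, with 1 pair of portions in each tumor and no replicate of a portion.

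**Figure D2:**
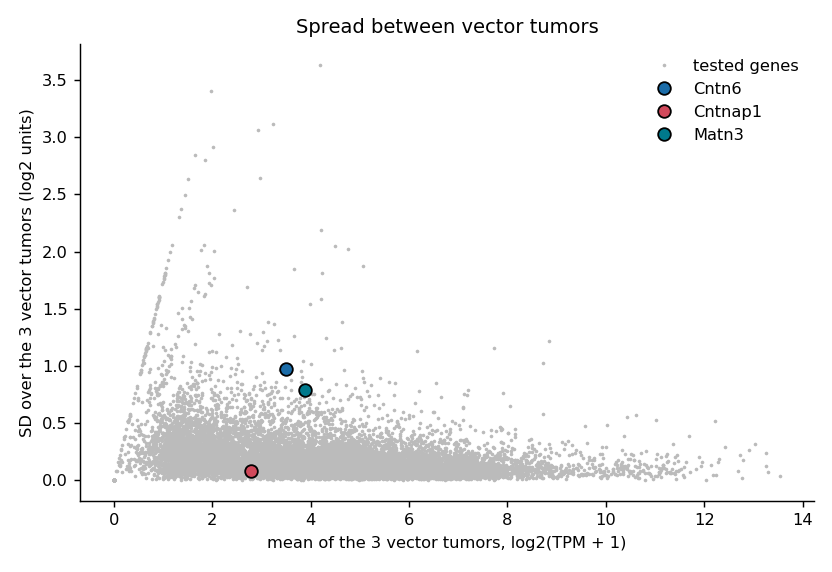
Mean (horizontal axis, log2(TPM + 1)) and SD (vertical axis, log2 units) over the 3 vector tumors for each of 13726 genes, with portions averaged. Cntn6 lies at an SD of 0.97, far above most genes of its level, and Cntnap1 at 0.081, within the bulk of genes; Matn3 is a cartilage matrix gene with a similar pattern to Cntn6.

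Cntnap1, the Caspr protein of the paranode, was the only other member above 1 TPM on average. The Colq libraries held 3.22, 3.22 and 2.97 TPM of it. Vector libraries held 5.41 and 5.61 TPM in the portions of vector tumor 1, 6.02 and 6.41 TPM in those of vector tumor 2, and 6.12 TPM in vector tumor 3. The groups did not overlap, and each vector library lay within 1.18-fold of any other. Tumor means were 3.14 ± 0.14 TPM in Colq and 5.95 ± 0.38 TPM in the vector group (SD, n = 3 tumors each), a ratio of 1.90. Cntnap1 was therefore the most abundant measured member in all 3 Colq libraries and in vector tumor 3, and Cntn6 was in the other 4 vector libraries.

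Differences of the members have to be read against a shift of the whole table. The median log2 difference of all tested genes was -0.50. By limma, at an adjusted p under 0.05 (Benjamini-Hochberg), 59.6% of tested genes were lower in Colq tumors and 11.3% were higher. Both members that passed the filter were among the genes called lower, but the contrast chose them, and Cntn6 passed the filter only through its vector tumors, so nothing is read from that count. The difference of Cntnap1 was -0.75, close to the median of -0.64 for tested genes with 4000 to 8000 exonic bases, to which its 5875 bases belong. After size factors, which set the median of all genes near 0, the difference was -0.28 for Cntnap1 and -3.10 for Cntn6. With the trend on exonic length removed it was -0.14 for Cntnap1 and -2.70 for Cntn6. The authors' deposited table gave log2 fold changes of -6.18 (authors' SE 0.77) for Cntn6 and -0.37 (authors' SE 0.14) for Cntnap1. In the same authors' deposited table the mean normalized counts were 250.7 for Cntn6 and 321.7 for Cntnap1.

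Libraries were made without strand information, which matters for Cntnap1. In GENCODE M21 its span overlaps Plekhh3 and Ccr10 on the opposite strand, and Ezh1 lies just beyond its end on that strand. Plekhh3 stood at 8.25 ± 0.84 against 15.1 ± 1.07 TPM in Colq and vector tumors, and Ezh1 at 10.6 ± 1.62 against 19.9 ± 1.67 TPM (SD, n = 3 each). The ratios of vector to Colq means were 1.83 for Plekhh3 and 1.88 for Ezh1, beside 1.90 for Cntnap1. Ccr10 was at 1.23 ± 0.38 against 2.02 ± 0.14 TPM (SD, n = 3 each), a ratio of 1.65, and its libraries overlapped between groups. Whether reads were shared between these genes was not tested.

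The remaining measured members were close to 0 in every library. Colq libraries held 0, 0.03 and 0.01 TPM of Cntn1, the paranodal contactin. In the vector libraries Cntn1 was at 0.11 and 0.07 TPM in tumor 1, 0.03 and 0 TPM in tumor 2, and 0.06 TPM in tumor 3. The groups overlapped, and the vector group had 0.055 ± 0.038 TPM of Cntn1 (SD, n = 3). Cntn2, the juxtaparanodal contactin, was above 0 in 3 of the 8 libraries, at 0.01 TPM in Colq tumor 3, 0.03 TPM in the second portion of vector tumor 1 and 0.02 TPM in vector tumor 3. Cntn4 was above 0 in 1 library, the second portion of vector tumor 1, at 0.09 TPM. Cntnap2, the partner of Cntn2, was listed at 0, 0.05 and 0.04 TPM in Colq tumors and ran from 0 to 0.01 TPM in vector libraries, an overlapping range. The authors' deposited table gave mean normalized counts of 2.29 for Cntn1, 0.83 for Cntnap2, 0.40 for Cntn2 and 0.18 for Cntn4. At such levels no order among these 4 genes, and no difference between groups, was read. Cntnap5a, a Caspr gene outside the group of 9, likewise reached no more than a mean of 0.00083 TPM.

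Markers of neural cells were set beside these values. Of 12 neuron markers 11 were in the table, and Snap25, Nefl, Nefh, Syt1 and Elavl4 were under 0.1 TPM in every library. The summed level of the 11 ran from 31.6 to 32.8 TPM in Colq libraries and from 34.9 to 87.8 TPM in vector libraries, most of it from Tubb3, a neuronal tubulin. Vector tumor 1 held 64.9 and 76.9 TPM of Tubb3, vector tumor 2 held 47.3 and 50.7 TPM, and 20.4 TPM was found in vector tumor 3, where Cntn6 was lowest too. The other 2 neuron markers above 1 TPM on average were highest there: Prph had tumor means of 7.10, 6.06 and 10.5 TPM in vector tumors 1, 2 and 3, and Map2 had 3.34, 3.66 and 3.84 TPM. Tubb3 did not part the groups, since the Colq libraries held 20.8 to 21.2 TPM of Tubb3. The 12 Schwann cell and myelin markers summed to 267.7 to 281.9 TPM in Colq and 301.9 to 383.1 TPM in vector libraries. Melanocyte markers did not order the vector libraries as Cntn6 did: their sum was highest, at 23817 TPM, in vector tumor 3. The 10 skeletal muscle markers moved the other way from Cntn6 between groups, with 936.6 to 952.8 TPM in Colq and 35.4 to 171.2 TPM in vector libraries. Endothelial markers, 8 of 8 in the table, summed to 21.8 to 24.7 TPM in Colq and 51.8 to 83.8 TPM in vector libraries. Macrophage markers summed to 1419 to 1465 TPM and 399.9 to 967.6 TPM, fibroblast markers to 392.5 to 424.5 TPM and 172.1 to 336.4 TPM, and T cell markers to 32.6 to 40.1 TPM and 13.9 to 34.9 TPM, in the same order of groups. These last 3 lists were mixed. Lyz2 alone had a Colq mean of 869.3 TPM, and 3 of 8 macrophage markers were called higher by limma on deposited TPM. Of 8 fibroblast markers 5 were called higher and 2 lower, Col1a1 among the latter at 45.5 against 87.2 TPM. Of 8 T cell markers 3 were called higher, beside 11.3% of all tested genes higher and 59.6% lower. The part of any of these cell types in the Cntn6 values was not tested.

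Genes that followed Cntn6 across the libraries were sought by Pearson's r of log2(TPM + 1) over the 8 libraries, among 13725 other genes. The first 5, passing over numbered gene models, were Klhl5 (r = 0.9988), Matn3 (0.9969), Pdap1 (0.9944), Pgm2 (0.9938) and Rpf2 (0.9933). The libraries fall into 2 groups and share tumors, so r describes these libraries and carries no test. Matn3, a matrilin of cartilage matrix, was near to Cntn6 in size as well as in order. Matn3 had 1.04, 0.80 and 0.90 TPM in Colq tumors. It had 17.5 and 33.8 TPM in the portions of vector tumor 1, 23.0 and 8.48 TPM in those of vector tumor 2, and 7.49 TPM in vector tumor 3. Its portions differed 1.93-fold in tumor 1 and 2.72-fold in tumor 2, in the same direction as those of Cntn6 in each tumor. Over the 5 vector libraries alone, r with Cntn6 was 0.980 for Matn3 and 0.993 for Klhl5. Those 5 libraries were among the 8 used to choose the genes. Neither these values nor the shared direction of the portions is therefore independent of that choice. Klhl5, a member of the kelch-like family, ran from 19.9 to 20.3 TPM in Colq and from 25.2 to 30.2 TPM in vector libraries, a far smaller range. After size factors the Colq minus vector difference was positive for Klhl5 (0.13), Pdap1 (0.049) and Rpf2 (0.22), and negative for Pgm2 (-0.096), Matn3 (-2.62) and Cntn6 (-3.10). Lower deposited TPM in Colq tumors came with the choice of genes by their r with Cntn6. After size factors Matn3 and Cntn6 stayed far below 0, and Pgm2 lay near 0 on the same side, with no test. The direction of Klhl5, Pdap1 and Rpf2 depended on the scale. Cntnap1 had an r of 0.877 with Cntn6 and was at rank 3060.

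**Figure D3:**
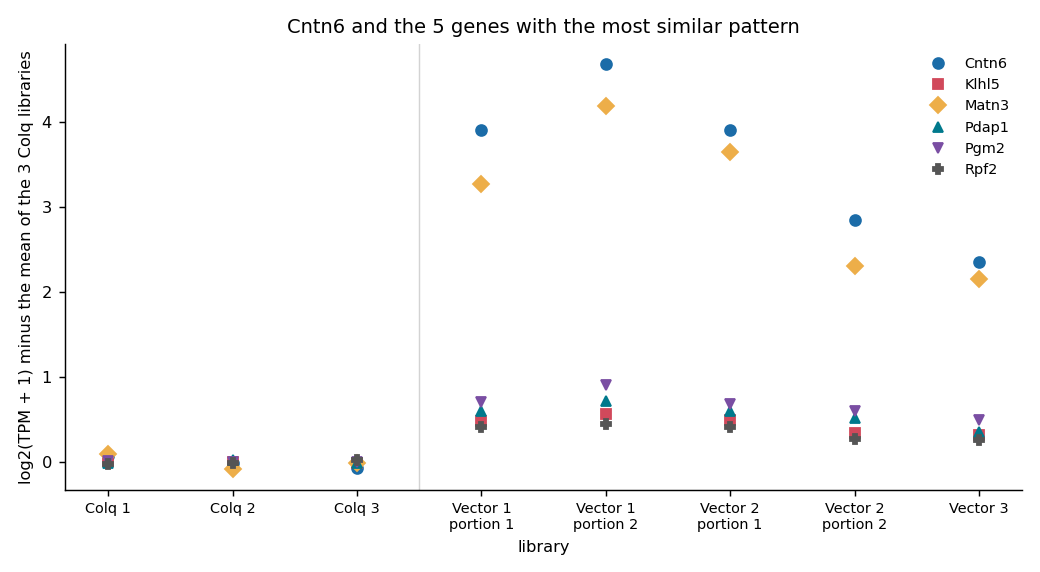
log2(TPM + 1) minus the mean of the 3 Colq libraries (vertical axis) in each library for Cntn6 and the 5 genes of highest Pearson's r with it. Cntn6 and Matn3 are highest in the second portion of vector tumor 1 and lowest, among vector libraries, in vector tumor 3, and so are Klhl5, Pdap1, Pgm2 and Rpf2, within a range below 1 log2 unit.

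The genes beside Cntn6 on its chromosome were at levels of their own. Of the 10 RefSeq entries next to it, 5 on each side, 1 was in the table: the noncoding Gm19757, at 0 to 0.12 TPM in all libraries. The protein-coding genes up to the fourth on each side were then taken, a choice made after the data were seen; Cntn3, between Pdzrn3 and Chl1, was not analysed here. Chl1, an L1-family adhesion gene and the nearest on one side, stood at 0.68, 0.59 and 0.64 TPM in Colq libraries. In vector libraries Chl1 was at 1.58 and 0.36 TPM in tumor 1, 0.32 and 0.09 TPM in tumor 2 and 0.30 TPM in tumor 3, so the groups overlapped. Cntn4 is the nearest on the other side, followed by Il5ra, the interleukin 5 receptor subunit, at 0.16, 0.29 and 0.08 TPM in Colq libraries and at 0 in all 5 vector libraries. Further out, Ppp4r2 (log2 difference -0.54, SE 0.067, adjusted p = 0.00027 by limma) and Trnt1 (-0.25, SE 0.053, adjusted p = 0.0039) were called lower on deposited TPM. After size factors their differences were 0.036 and 0.32, so the direction depended on the scale. Pdzrn3, at 1.20 ± 0.17 against 3.01 ± 0.69 TPM (SD, n = 3 each), was lower by 0.85 (SE 0.17, adjusted p = 0.0030 by limma) and kept that direction after size factors (-0.48). Crbn was at 30.5 ± 0.32 and 32.2 ± 3.63 TPM (SD, n = 3 each; limma, adjusted p = 0.52), and its difference of -0.068 became 0.49 after size factors.

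**Figure D4:**
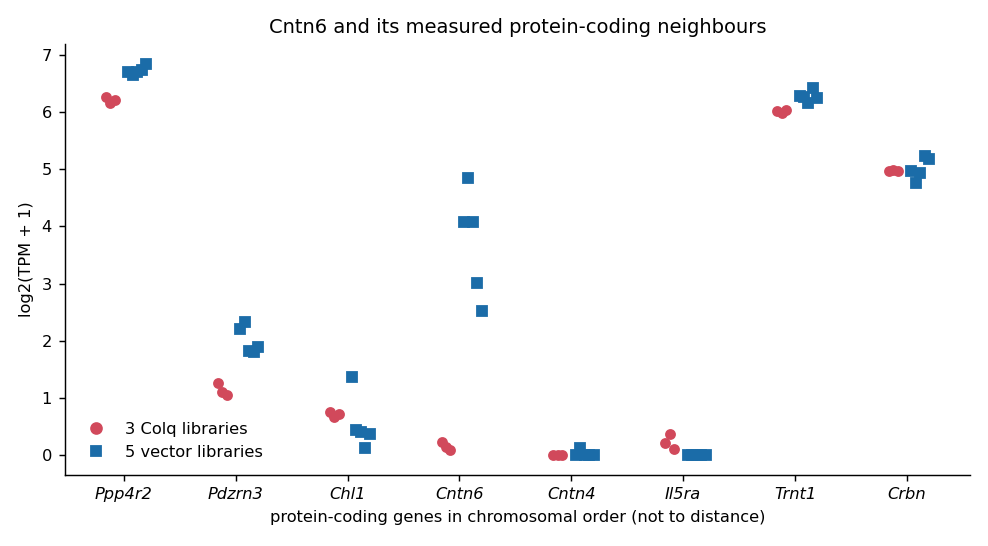
log2(TPM + 1) in the 3 Colq libraries (circles) and 5 vector libraries (squares) for Cntn6 and the measured protein-coding genes nearest to it, in chromosomal order and not spaced by distance. Cntn6 lies between 4.71 and 27.7 TPM in vector libraries, while its nearest neighbours Chl1 and Cntn4 reach no more than 1.58 and 0.09 TPM.

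The partners of contactins were lower in Colq tumors on deposited TPM, as most genes were. The list of contactin receptors and ligands named 16 genes. The table held 15 of them, and 9 were tested. All 9 fell and 0 rose, with a median log2 difference of -1.14, beside -0.50 and 59.6% called lower for all tested genes. Nrcam, an L1-family receptor of contactins, was at 57.1 ± 1.26 TPM in Colq and 160.3 ± 24.6 TPM in the vector group (SD, n = 3 each; limma, adjusted p = 3.1e-05). App, a partner of Cntn4, was at 61.6 ± 2.86 against 137.5 ± 8.76 TPM, and its relative Aplp2 at 75.4 ± 3.38 against 173.7 ± 11.1 TPM. No tumor of one group reached the other for these 3 genes. The share of all tested genes for which that holds was not computed, so nothing particular to them is read from it. Ptpra, a receptor phosphatase that acts with Cntn6 and Chl1, was at 49.7 ± 1.49 against 88.0 ± 5.65 TPM. After size factors 7 of the 9 genes remained called lower, where 25.5% of all tested genes were lower and 28% higher. With the length trend removed 4 were called lower, where 27.3% of all genes were lower and 19.7% higher, and Ptpra stood at 0.029, on the other side of 0. Both settings leave the counts tied to the scale chosen. Ptprz1, Chl1, Nfasc, Aplp1, Dtx1 and Tnr were under 1 TPM on average. Among them Nfasc, the gene of the paranodal ligand neurofascin, had a mean of 0.32 TPM over the 6 tumors. Ptprg was not analysed here.

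The scaffold proteins that tie Caspr proteins to the cytoskeleton, with the channels they hold, were the next list. Of 16 genes 10 were tested, 8 fell and 0 rose, with a median of -0.95 (59.6% of all genes were called lower). Sptan1, the alpha spectrin of non-red cells, was at 58.5 ± 6.03 against 192.7 ± 5.59 TPM (SD, n = 3 each), a difference of -1.71 (SE 0.080; limma, adjusted p = 1.2e-05). Epb41l2, a protein of the band 4.1 family, was at 38.3 ± 0.45 against 99.5 ± 13.6 TPM. Ank2, an ankyrin, was at 6.46 ± 0.20 against 22.8 ± 5.63 TPM, and Kcnab2, an auxiliary subunit of potassium channels, at 24.5 ± 3.22 against 48.9 ± 1.98 TPM. These 4 genes were called lower under each of the settings run. Ank3 (difference -0.41, adjusted p = 0.13) and Dlg4 (0.22, adjusted p = 0.46) did not pass by limma. After size factors 7 were lower and 0 higher (median -0.40), where 25.5% of all tested genes were lower and 28% higher. With the length trend removed 4 were lower and 3 higher (median -0.11), where 27.3% of all genes were lower and 19.7% higher. The neural forms were scarce: Kcna1, Kcna2, Sptbn4 and Gldn were under 0.11 TPM on average, and Adam22 and Epb41l3, the band 4.1 protein that binds Caspr proteins, were also under the filter.

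**Figure D5:**
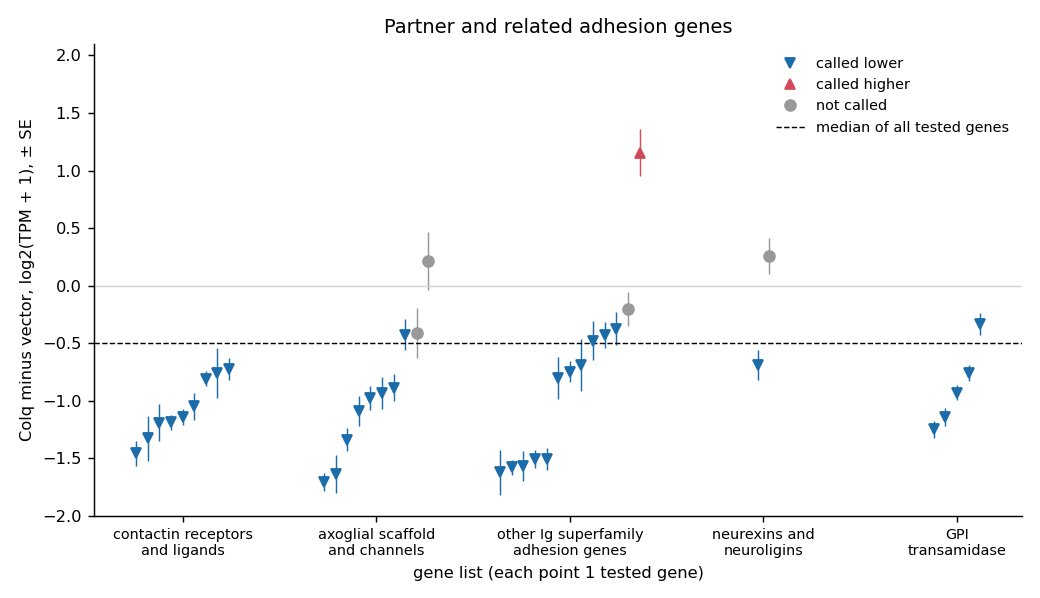
Colq minus vector difference in log2(TPM + 1) with its SE for each tested gene of 5 lists (downward triangles, called lower; upward triangle, called higher; circles, not called), with the median of all tested genes, -0.50, as a dashed line. All 9 contactin receptors and ligands lie below that median, and Cadm3 is the only gene called higher.

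Most other tested adhesion genes of the immunoglobulin superfamily were lower in Colq tumors on deposited TPM. Of 22 genes 13 were tested, 11 fell and 1 rose, with a median of -0.75 (59.6% of all genes were called lower and 11.3% higher). Kirrel, a nephrin-family adhesion gene, was at 16.0 ± 0.34 against 50.3 ± 2.25 TPM (SD, n = 3 each; limma, adjusted p = 9.7e-06). Cadm1, a homophilic adhesion protein, was at 30.6 ± 1.24 against 89.9 ± 8.08 TPM, and Neo1, a netrin receptor, at 9.40 ± 0.64 against 28.9 ± 2.93 TPM. Robo1, a receptor of Slit proteins, was at 2.44 ± 0.46 against 9.13 ± 0.36 TPM. Cadm3, a neural relative of Cadm1, was the 1 gene called higher, at 2.24 ± 0.61 in Colq and 0.463 ± 0.22 TPM in the vector group (SD, n = 3 each; difference 1.15, SE 0.20; limma, adjusted p = 0.0016). After size factors 5 genes of this list were lower and 1 higher, where 25.5% of all tested genes were lower and 28% higher. With the length trend removed 5 were lower and 2 higher, where 27.3% of all genes were lower and 19.7% higher. On that last scale the list median was -0.081, close to the -0.072 of all genes.

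Among neurexins and neuroligins, relatives of the Caspr proteins and their synaptic ligands, 2 of 6 genes were tested. Nlgn2 was at 3.81 ± 0.19 against 6.89 ± 1.13 TPM (SD, n = 3 each; difference -0.69, limma, adjusted p = 0.0021), and it did not pass either under size factors (-0.22, adjusted p = 0.16) or with the length trend removed (-0.093, adjusted p = 0.58). Nrxn2 was at 7.75 ± 1.42 against 6.34 ± 1.03 TPM (SD, n = 3 each; adjusted p = 0.18 by limma). Under size factors limma called Nrxn2 higher, with a difference of 0.75 (adjusted p = 0.0075). All 5 subunits of the GPI transamidase, the enzyme that attaches the anchor carried by contactins, fell on deposited TPM, with a median of -0.93 beside -0.50 and 59.6% called lower for all tested genes. Pigs was at 20.6 ± 1.55 against 50.2 ± 0.57 TPM and Pigt at 49.7 ± 3.63 against 111.0 ± 7.88 TPM (SD, n = 3 each). Pigu was at 20.4 ± 0.60 against 39.7 ± 1.90 TPM and Gpaa1 at 51.3 ± 2.90 against 87.5 ± 5.27 TPM. After size factors 3 of the 5 were lower, where 25.5% of all tested genes were, and the difference of Gpaa1 was -0.19 (limma, adjusted p = 0.068). With the length trend removed 3 were lower and 1 higher, where 27.3% and 19.7% of all genes were.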

How the data were processed

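The deposited expression values are log2(TPM + 1), which return to TPM with 2 decimals. Per the submitters' processing notes the authors used RSEM and build mm39; the sources used here name no aligner, version or gene annotation. The authors' deposited comparison comes from DESeq2, per the submitters' processing notes. Per the file headers it holds a mean normalized signal (mean normalized counts), log2 fold changes and p-values; its p-values were not used for the members, and Colq, with a log2 fold change of 5.48, fixed which group its signs favour.

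Groups came from the sample titles. Portions of a tumor were averaged on the log2 scale, or as TPM for TPM means. Genes with a mean of at least 1 TPM over the 6 tumors (13726) entered limma 3.58.1 (R 4.3.3; moderated by eBayes with an intensity trend), two-sided, with Benjamini-Hochberg adjustment over all of them. The labels number separate tumors but do not say that each came from its own mouse, so p-values measure only the spread between these samples. The median SD was 0.094 log2 units in Colq and 0.14 in vector tumors. As TPM carry no depth, that spread sets the precision. The 3 Colq libraries thus varied less than the vector tumors. On another measure, portions of a single vector tumor had a median absolute difference of 0.14 (tumor 1) and 0.22 (tumor 2) log2 units. Whether the Colq libraries are independent of each other was not tested. Every SD and p-value that counts 3 Colq tumors rests on the labels for that. Members and lists were chosen with earlier results of these data known. Genes named in the text are the members, up to 4 called genes per direction and partner list by smallest p, the RefSeq entries beside Cntn6 and the 5 genes most like Cntn6; further genes (Ank3, Dlg4, Nrxn2, Tubb3, Prph, Map2, the protein-coding neighbours of Cntn6 and the genes overlapping Cntnap1) were chosen after their values were seen. Exonic lengths came from GENCODE M21 and covered 13211 of the tested genes. The fit was tested on simulated data. Python 3.11.15, numpy 2.4.6, pandas 2.3.3 and matplotlib 3.10.9 were used for the rest. Receptor repertoire measures were not used here.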

Additional observations from a re-analysis of the deposited data

Results flagged for a closer look

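Named genes were compared over the 5 vector libraries, 36 genes in all, for a library whose gap to its nearest neighbour took up most of the range. By chance about 1 in 20 such groups is picked out, and the portions of a tumor are not independent. Cntn4 stood at 0.09 TPM in the second portion of vector tumor 1 and at 0 in the other 4 vector libraries. Cadm3 stood apart at 1.13 TPM in the same portion, and Chl1 at 1.58 TPM in the first portion of that tumor. All 3 genes had a mean below 1 TPM in vector tumors.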

How the results depend on the processing

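Settings were other pseudocounts, filters, scalings and treatments of portions, a replicate block and leaving out each tumor, with the removal of a length trend (loess, span 0.5) and the 3 Colq libraries counted as 1 sample added after the data were seen. That last fit assumes for the lone Colq sample the spread of vector tumors. Over all tested genes, 8181 were lower and 1556 higher on deposited TPM. The counts were 3505 and 3843 after size factors, 4267 and 3142 with quantile normalization, and 3605 and 2609 once the length trend was taken out. With the Colq libraries as 1 sample 788 were higher. With the length trend removed 4 contactin receptors and ligands, 4 scaffold genes and 5 other adhesion genes were lower. The last list had 5 lower genes after size factors, 6 with quantile normalization and 7 with the Colq libraries as 1 sample. Its genes called higher were 2 with the length trend removed and 0 at a mean of at least 5 TPM, a filter that leaves out Cadm3. The Cntn6 difference moved from -3.34 to -5.57 at a pseudocount of 0.1 and -4.12 at 0.5. It lay between -3.84 and -2.86 when single tumors were left out. Ptpra changed sign with the length trend removed (0.029). The cause of these shifts was not tested. Depth cannot be read from TPM, so members at or under 0.11 TPM allow no statement on a difference.

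Colq and vector tumors share replicate numbers that mark no common animal or batch in the labels. Deviations of same-numbered tumors correlated at 0.030, 0.0070 and 0.044 over 13726 genes, all close to 0. Of 6 tumors 5 correlated best with their own number. Deviations were centred within each group, so these matches are not independent, and no pairing is read from them. With the replicate block 7928 genes were lower and 1526 higher, and the counts of the contactin receptor, scaffold and other adhesion lists stayed at 9, 8 and 11 lower.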
